A study of Mus musculus with 4 samples.

Results

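The GM-CSF receptor and STAT5 pathway genes were 10 genes taken by symbol. They comprised the receptor subunit genes Csf2ra, Csf2rb and Csf2rb2, the kinase gene Jak2, the transcription factor genes Stat5a and Stat5b, and the feedback inhibitor genes Cish, Socs1, Socs2 and Socs3. They were 10 of 21728 protein-coding genes on the chromosomes that carried peaks. The genes were listed by symbol rather than by a peak value, but earlier results of these data were known at that time. Binding of RBPJ was profiled by HT-ChIPmentation, in which sequencing adapters are inserted into immunoprecipitated chromatin by a transposase, in alveolar macrophages (AMs) sorted from bronchoalveolar lavage of 9-week-old WT C57BL/6J mice. The 2 RBPJ libraries, replicates 1 and 2, each had a list of peaks called by the authors against an input library. The 2 input libraries were not analysed here. All samples had the same genotype and cell type, so no groups of samples were compared and all values below are descriptions of these 2 libraries, with no test. The labels did not state whether the libraries came from separate mice.

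GM-CSF binds a receptor made of a specific α chain, encoded by Csf2ra, and a signal-transducing β chain, encoded by Csf2rb, which also serves IL-3 and IL-5. The kinase JAK2 sits on the β chain and phosphorylates STAT5A and STAT5B, which dimerize and bind palindromic DNA elements called GAS sites. Cish, Socs1, Socs2 and Socs3 are induced by STAT5 and other STATs, and their products dampen signaling at the receptor or the kinase. In the lung, GM-CSF is required for AM development and surfactant clearance. Signals from Notch receptors reach DNA through RBPJ, which recognizes the core sequence TGGGAA.

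Replicate 1 held 106228 peaks and replicate 2 held 47224. Of these, 26.0% of replicate 1 peaks and 66.3% of replicate 2 peaks overlapped a peak of the other list, and merged intervals with a peak of each formed 25454 consensus regions. The fold of a peak is the authors' enrichment over input at its summit, and the q-value is its adjusted significance, given as −log10. In replicate 1, 69.6% of folds were whole multiples of 0.254 to within 0.001 of a step, and in replicate 2, 77.9% were whole multiples of 0.335. Folds less than a step apart were not ordered, with the larger step used between libraries. Among promoters of marker genes, 8 of 10 AM markers had a consensus region, including Siglecf, Chil3 and Itgax, whereas Marco and Krt79 had none. The counts were 0 of 5 for lymphocyte, 0 of 5 for neutrophil and 2 of 5 for epithelial markers, which were Foxj1 and Epcam. The share over all protein-coding genes was 33.7%.

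Of the 10 pathway genes, 9 had a consensus region within 1 kb of a transcription start site (TSS), against 33.7% of all protein-coding genes. Socs3 was the exception. A consensus region lay in the gene body of 8 genes, against 37.3% of all genes, and all 10 were the gene with the nearest TSS to a consensus region, against 40.5%. With any of these assignments counted, all 10 genes had at least 1 region, against 45.0%. In the lists taken singly, a peak within 1 kb of a TSS was present at 10 genes in replicate 1, where 46.1% of all genes had one, and at 9 genes in replicate 2, where 37.5% did. Whether RNA levels move with these shares was not tested.

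In total, 33 consensus regions were assigned to the 10 genes, and none was assigned to more than 1 of them. Csf2rb had 9 regions, Csf2ra and Stat5b had 5 each, Cish, Socs2 and Socs3 had 3 each, Jak2 had 2, and Csf2rb2, Stat5a and Socs1 had 1 each. Csf2ra, Csf2rb and Stat5b were thus the 3 genes with 5 or more regions, which 7.42% of all protein-coding genes had. The median fold of the 33 regions was 5.07 in replicate 1, against 6.34 over all consensus regions, and 5.02 in replicate 2, against 5.02. The fold was higher in replicate 1 by at least a step at 17 of the 33 regions (51.5%), against 65.8% of all regions, and higher in replicate 2 at 9 (27.3%), against 22.1%. At the other 7 the libraries were less than a step apart. The median fold of the 33 regions was thus no higher than that of the whole series in either library, while single regions ranked near its top. The count of regions depended on the definition: 17 were left when both peaks had to reach a −log10 q of 5. Merging only peaks with a summit of the other list within 100 bp gave 17 regions. Of the 33 regions, 16 (48.5%) had the summits of their highest peaks within 100 bp, against 52.3% of all regions.

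**Figure D1:**
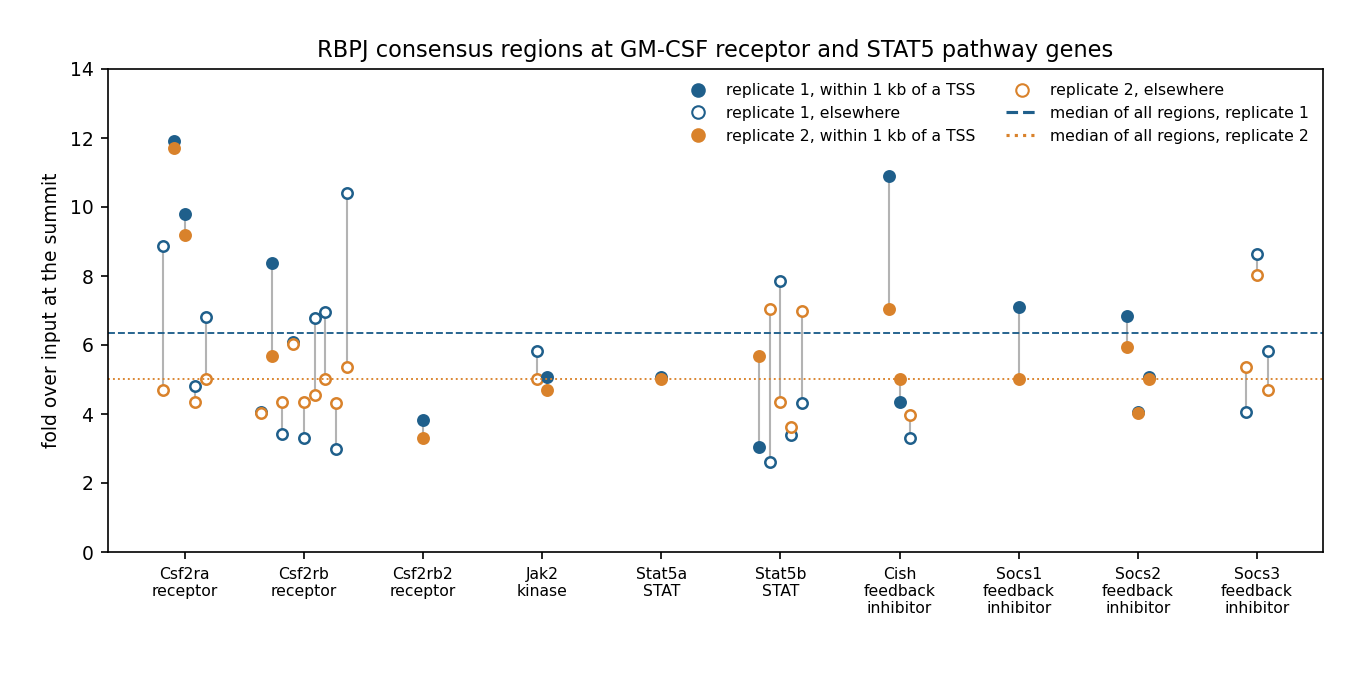
Fold over input (y axis) of each consensus region in both libraries, with the regions of each gene in transcriptional order; joined points are the same region, filled points lie within 1 kb of a TSS, and the lines mark the medians of all consensus regions. Csf2ra carried the highest pair (11.9 and 11.7), Csf2rb2 had a single weak region (3.82 and 3.30), and at Stat5b the libraries ordered the regions differently.

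Csf2ra encodes the α chain that makes the receptor specific for GM-CSF. It carried the strongest binding of the 10 genes. The region over its upstream TSS, at chr19:61227917-61228921 (mm10), had folds of 11.9 in replicate 1 and 11.7 in replicate 2, and summits 41 bp apart. The lower of these folds was above that of 98.7% of all consensus regions. A further region, at chr19:61225944-61227812, lay over the TSS of a shorter transcript and had folds of 9.81 and 9.18, with summits 1 bp apart. The 2 libraries were thus close to each other at both starts of the gene.

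Consensus regions at Csf2ra were not confined to its starts, but elsewhere the summits of the 2 libraries lay further apart. A region within the body with its replicate 1 summit in a coding exon had folds of 4.82 and 4.35, with summits 227 bp apart. A region over the end of the gene had folds of 6.82 and 5.02, with summits 335 bp apart. A region with its replicate 1 summit 16499 bp upstream had 8.88 in replicate 1 but 4.69 in replicate 2. The replicate 2 summit lay 691 bp from it, so the 2 folds belong to different positions. Together, consensus regions covered 85.2% of the Csf2ra gene body, and only 72 protein-coding genes had a larger covered share. The median was 2.60% among genes with a region in the body. Csf2ra is short, at 4473 bp, so that a few regions can cover most of it. A consensus region spans the merged peaks of both lists, so the 85.2% includes bases covered in 1 library only. At the end of the gene, the replicate 1 peak spanned 3417 to 5240 bp from the upstream TSS. The replicate 2 peak there spanned 4201 to 4661 bp. In addition, 14 of its 20 peaks in replicate 1 had no counterpart in replicate 2, the highest being a peak downstream of the gene with a fold of 7.36. The other 6 overlapped a replicate 2 peak, as did 26.0% of all replicate 1 peaks.

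The stretch at the upstream Csf2ra TSS holds an RBPJ core and a PU.1-type motif close together, and the region upstream of Stat5b holds the same pair. PU.1 is the ETS factor that defines the macrophage lineage. Both stretches are shown because they were the only member regions with TGGGAA and GAGGAAG within 100 bp of the summit, out of 33, against 3.02% of all consensus regions. Capitals mark TGGGAA or its reverse complement TTCCCA and GAGGAAG. Sequences are from the RefSeq GRCm38 genome and read 5′ to 3′ on the strand of the gene.
Csf2ra, chr19:61228410-61228458, minus strand: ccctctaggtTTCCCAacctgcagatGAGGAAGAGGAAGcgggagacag
Stat5b, chr11:100851129-100851183, minus strand: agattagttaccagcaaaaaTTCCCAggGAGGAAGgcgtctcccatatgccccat
At Csf2ra the core lay 46 bp from the summit of the region, and the GAGGAAG matches, which overlap by their last and first bases, lay 24 and 30 bp from it. At Stat5b the core lay 35 bp and GAGGAAG 27 bp from the summit, which is that of replicate 2. The replicate 1 summit lay 158 bp from it, and the replicate 1 peak does not reach the stretch shown. The lower q of this Stat5b region was above that of only 6.86% of all consensus regions. A match is a description of the letters and does not show which factor was bound.

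**Figure D2:**
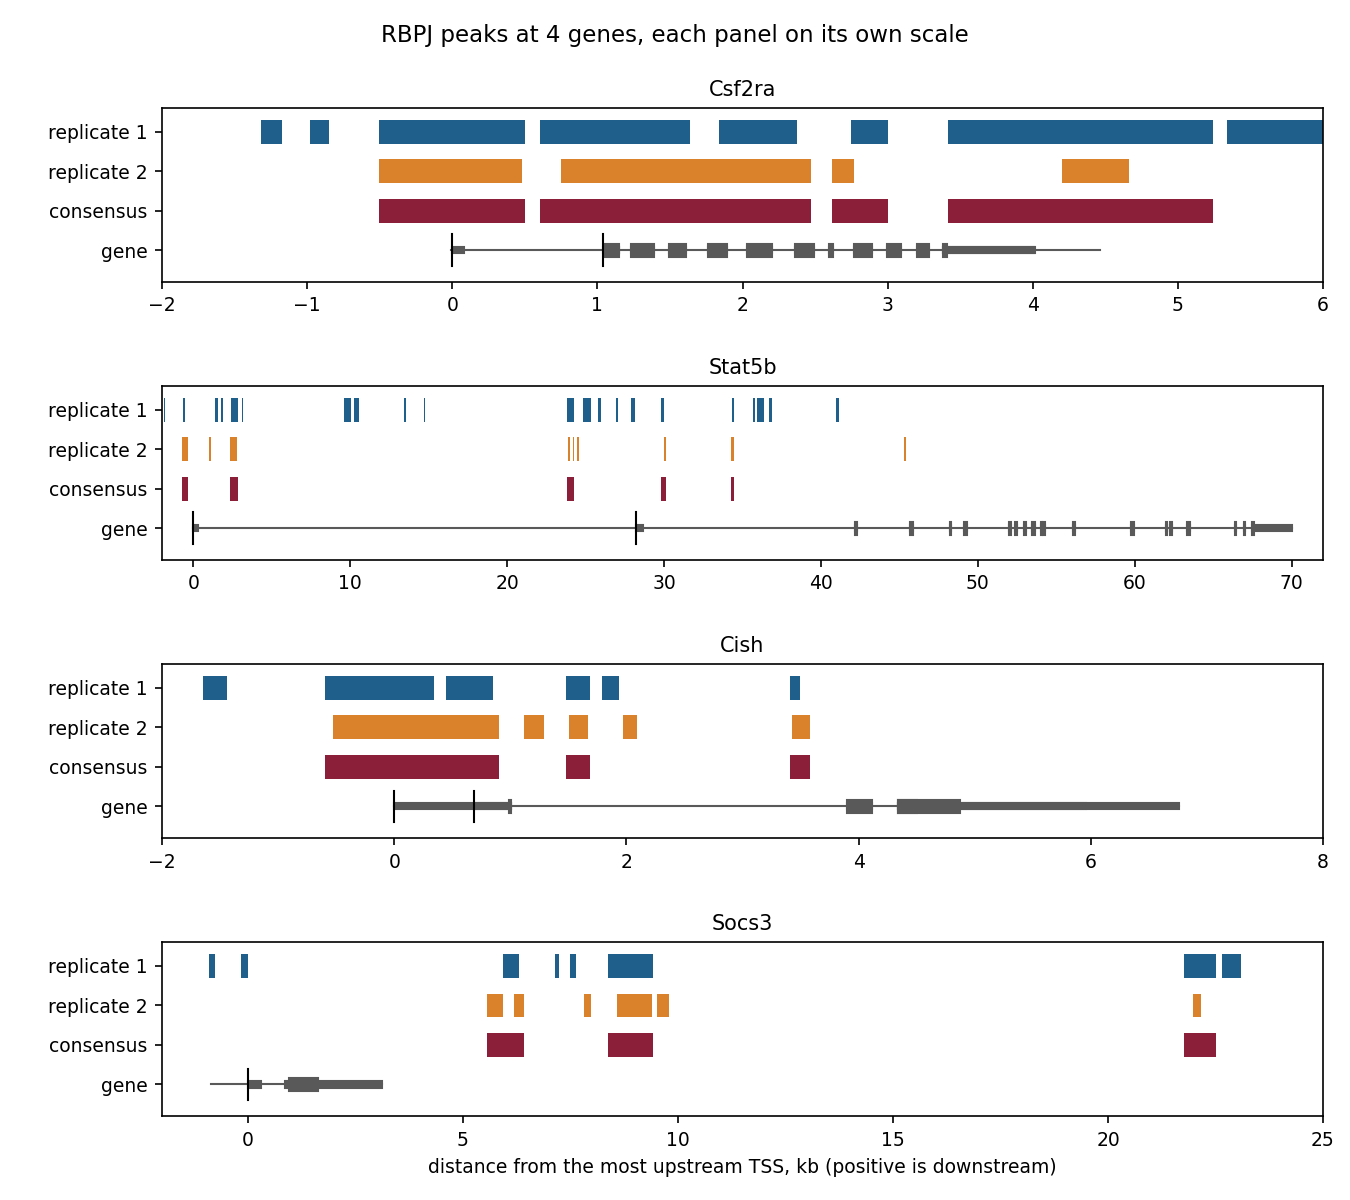
Peaks of replicate 1 (top row of each panel), peaks of replicate 2, consensus regions and the gene model (thick boxes coding, thin boxes noncoding exons, vertical lines TSSs) at Csf2ra, Stat5b, Cish and Socs3, against distance from the most upstream TSS in kb, with a different scale in each panel. Consensus regions, which span the merged peaks of both lists, covered 85.2% of the Csf2ra body, and the Socs3 regions all lay beyond the end of the gene.

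Csf2rb, the common β chain gene, had the most regions but not the highest folds. The region at its TSSs, chr15:78325781-78326954, had folds of 8.37 in replicate 1 and 5.69 in replicate 2, with summits 183 bp apart. In the first part of the gene body, an intronic region 4921 bp downstream of the nearest TSS had 6.08 and 6.02, and 2 other intronic regions had 3.42 and 4.34, and 3.30 and 4.35. At the intronic region at 4921 bp the 2 libraries differed by less than a step, and its lower fold was 1 step above that of the TSS region, whose fold in replicate 1 was higher.

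A second group of Csf2rb regions lay at the far end of the gene. A pair of intronic regions 25805 and 27293 bp from the TSS had folds of 6.79 and 4.55, and 6.95 and 5.02. The summits of the first lay 509 bp apart and those of the second 5 bp apart. Past the end of the gene, a region at 28009 bp had 2.99 and 4.32, and a region at 29569 bp, chr15:78354565-78355838, had 10.4 in replicate 1 but 5.36 in replicate 2. A single region lay upstream, 4716 bp from the TSS, with 4.06 and 4.02. Of the 13 replicate 2 peaks at Csf2rb, 12 overlapped a replicate 1 peak, whereas 10 of the 24 replicate 1 peaks overlapped a replicate 2 peak. The shares over all peaks were 66.3% for replicate 2 and 26.0% for replicate 1. Consensus regions covered 17.9% of the body.

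GAS sites, the element bound by STAT5, were found near 2 Csf2rb summits. The stretches are shown because they place a GAS match (TTCNNNGAA, which reads the same way on both strands) in regions of the receptor gene. Capitals mark the GAS match and, in the first, also CTTCCTC, the reverse complement of GAGGAAG.
Csf2rb, TSS region, chr15:78325920-78326009, plus strand: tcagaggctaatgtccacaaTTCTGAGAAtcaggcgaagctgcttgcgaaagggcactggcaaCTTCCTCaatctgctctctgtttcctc
Csf2rb, upstream region, chr15:78321053-78321101, plus strand: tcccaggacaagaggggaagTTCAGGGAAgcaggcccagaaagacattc
The GAS match of the TSS region lay 3 bp from the replicate 1 summit, which was 183 bp from that of replicate 2. It lay 46 bp upstream of the nearest of 3 TSSs, in an intron of the transcript from the most upstream TSS. The match of the upstream region lay 41 bp from the summit. These and a match at Socs2 were the 3 GAS matches among the 33 member windows of 201 bp (9.09%), against 7.38% of all consensus regions.

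Csf2rb2, the neighboring paralog, encodes a β chain that in mice serves the IL-3 receptor. It had the weakest binding of the 3 receptor genes. Its single region, in an intron at chr15:78304841-78305126, 739 bp from the TSS, had folds of 3.82 and 3.30. Its −log10 q was 4.68 in replicate 1 and 1.85 in replicate 2, and the lower q was above that of only 2.63% of all consensus regions. The region was lost when both peaks had to reach a −log10 q of 5, when summits had to lie within 100 bp, and when replicate 1 was shortened to the length of replicate 2.

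The other Csf2rb2 peaks were each called in a single library. Replicate 1 alone had a peak at the TSS with a fold of 4.06, and replicate 2 alone had a peak in the body, 5891 bp downstream of the nearest TSS, with a fold of 6.02. The gene shares sequence with Csf2rb: 15.6% of its 50-base stretches recur exactly in Csf2rb, and 12.9% of those of Csf2rb recur in Csf2rb2. No 50-base stretch of the Csf2rb2 region recurs in Csf2rb. In Csf2rb, 2.76% of the TSS region and 8.41% of the intronic region at 4921 bp recur in Csf2rb2, and 0% of the other 7 regions. Among the 3 receptor genes, the strongest consensus regions ran in the order Csf2ra, Csf2rb and Csf2rb2 in both libraries.

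Jak2, the kinase gene, had few shared regions. The region at the TSS of an alternative transcript, chr19:29252220-29252492, had folds of 5.07 and 4.69, and a region 12026 bp upstream, chr19:29239559-29240155, had 5.84 and 5.02. The 2 regions differed by 3 steps in replicate 1 and 1 step in replicate 2. Of its 16 replicate 1 peaks, 2 overlapped a replicate 2 peak, against 26.0% of all replicate 1 peaks. Replicate 1 thus had 14 further peaks without a counterpart. Among them, a pair in an intron near the start had a fold of 6.09 each, higher than either shared region. The closer of these began 196 bp from a replicate 2 peak. Replicate 2 had 1 further peak, 7194 bp downstream of the nearest TSS, with 4.35. Consensus regions covered 0.446% of the 61253 bp body.

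Stat5a and Stat5b lie next to each other and point away from each other, with starts 8627 bp apart. Stat5a had a single region, beside its TSSs at chr11:100859740-100860499, with folds of 5.07 in replicate 1 and 5.02 in replicate 2. The summits of that region were 393 bp apart, and it was lost when they had to lie within 100 bp. Stat5b had 5 regions. The region upstream of its TSS, chr11:100851077-100851475, had 3.04 in replicate 1 and 5.69 in replicate 2. The region in the first intron, 2438 bp downstream of the TSS, chr11:100847882-100848399, had 2.60 and 7.03, with summits 316 bp apart.

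Further into Stat5b, 3 intronic regions lay around the start of a shorter transcript. The region 4230 bp upstream of that start, chr11:100826439-100826927, had folds of 7.87 and 4.35, and both summits fell on the same base. The regions 1907 and 6164 bp downstream of it had 3.38 and 3.63, and 4.31 and 6.97. The fold was thus higher in replicate 2 by at least a step at 3 of the 5 Stat5b regions, whereas all consensus regions were more often higher in replicate 1. The strongest Stat5b region was the one at 4230 bp in replicate 1, whereas in replicate 2 the regions at 2438 and 6164 bp were the strongest, less than a step apart. The 2 libraries thus gave no common order of the Stat5b regions. When replicate 1 was shortened to the length of replicate 2, the 2 STAT genes kept 2 of their 6 regions.

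Among the feedback inhibitors, Cish had the strongest promoter. CIS, its product, competes with STAT5 for docking sites on activated receptors. The region over its 2 TSSs, chr9:107295426-107296925, had folds of 10.9 in replicate 1 and 7.03 in replicate 2, and its lower fold was above that of 84.9% of all consensus regions. This region also overlaps another annotated gene, Gm17040. The regions 936 and 2782 bp downstream of the nearest TSS had 4.34 and 5.02, and 3.30 and 3.96. Consensus regions covered 19.0% of the Cish body. Over its 1500 bp the promoter region holds 5 GAS matches. The 2 nearest to the summit are marked in capitals in the stretch below, which is shown because Cish is a classic STAT5 target.
Cish, chr9:107296656-107296681, plus strand: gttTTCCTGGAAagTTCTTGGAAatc
The matches lay 107 and 118 bp from the summit used, which is that of replicate 1, just outside the window of 100 bp either side. The replicate 2 summit lay 207 bp from that of replicate 1, so this placing holds for 1 library. They lay 47 and 36 bp upstream of the downstream TSS, within a noncoding exon of the transcript that begins at the upstream TSS. Of the other 3 matches, 2 lay 58 and 75 bp past the downstream TSS and 1 lay 1180 bp before it. With 250 bp either side, 9 of the 33 member regions had a GAS match (27.3%), against 15.9% of all consensus regions.

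Socs1 and Socs2 were also bound at their promoters. SOCS1 inhibits JAK kinases directly, and SOCS2 acts mainly on growth hormone signaling. The Socs1 region, chr16:10785550-10785936, lay 125 bp upstream of the TSS and had folds of 7.10 and 5.02, with summits 15 bp apart. Socs2 had 3 regions in a row upstream of its TSS, with summits at 1115, 638 and 242 bp. Their folds were 6.85 and 5.94, 4.06 and 4.02, and 5.07 and 5.02. The regions at 1115 and 638 bp also overlap another annotated gene, 5730420D15Rik. The most distal of the 3, chr10:95417810-95418312, with its inner edge within 1 kb of the TSS, was the strongest in both libraries. All 6 Socs2 peaks, 3 in each list, were shared between the libraries, against 26.0% of all replicate 1 and 66.3% of all replicate 2 peaks.

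The Socs1 promoter held the only match to the longer RBPJ sequence GTGGGAA within 100 bp of a member summit, and the distal Socs2 region held the only pair of TGGGAA and GAS matches. Both stretches are shown for that reason, with the matches in capitals.
Socs1, chr16:10785680-10785726, minus strand: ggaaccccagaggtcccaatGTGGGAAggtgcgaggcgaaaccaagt
Socs2, chr10:95417881-95417964, minus strand: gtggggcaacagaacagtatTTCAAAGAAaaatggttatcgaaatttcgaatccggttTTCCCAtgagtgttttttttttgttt
GTGGGAA was found in 1 of 33 member windows (3.03%), against 4.64% of all consensus regions. At Socs1 it lay 42 bp from the summit and 167 bp upstream of the TSS. At Socs2 the GAS match lay 32 bp and the RBPJ core 69 bp from the replicate 1 summit, which was 138 bp from that of replicate 2. Such a pair was present in 1.91% of all consensus regions.

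Socs3 differed from the other 3 inhibitors in where it was bound. SOCS3 restrains JAK kinases downstream of the receptors for IL-6 and G-CSF. No consensus region lay within 1 kb of its TSS or in its body, and its 3 regions lay downstream at 5712, 8953 and 22286 bp from the TSS. The region at 8953 bp, chr11:117959766-117960814, had folds of 8.63 in replicate 1 and 8.03 in replicate 2, with summits 4 bp apart, and its lower fold was above that of 91.3% of all consensus regions. The other regions had 4.06 and 5.36 at 5712 bp, and 5.84 and 4.69 at 22286 bp. The position 5712 bp is the replicate 2 summit, and the replicate 1 summit lay 388 bp from it. The replicate 1 peak began at 5919 bp, where the replicate 2 peak of 5.36 ended. A second replicate 2 peak in that region had 2.97. At 22286 bp the summits lay 195 bp apart. The Socs3 region at 8953 bp was the third strongest of the 33 by its lower fold, after the 2 promoter regions of Csf2ra.

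The Socs3 promoter was called in a single library. Replicate 1 had a peak 74 bp upstream of the TSS with a fold of 6.85 and a −log10 q of 13.6, and a second peak 791 bp upstream with 3.81. The nearest replicate 2 peak lay 5546 bp from the first of these. The lack of a consensus region at the Socs3 promoter thus rests on replicate 2. The Socs3 region at 8953 bp holds a GAS match, TTCCCAGAA, that contains the reverse complement of the RBPJ core, with GAGGAAG nearby, and is shown for this overlap of 2 motifs.
Socs3, chr11:117960091-117960160, minus strand: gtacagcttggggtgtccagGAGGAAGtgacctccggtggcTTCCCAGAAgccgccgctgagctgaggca
The match lay 118 bp from the summit. TTCCCAGAA or its reverse complement TTCTGGGAA was present within 250 bp of the summit in 1.83% of all consensus regions and in 1 of the 33 member regions.

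**Figure D3:**
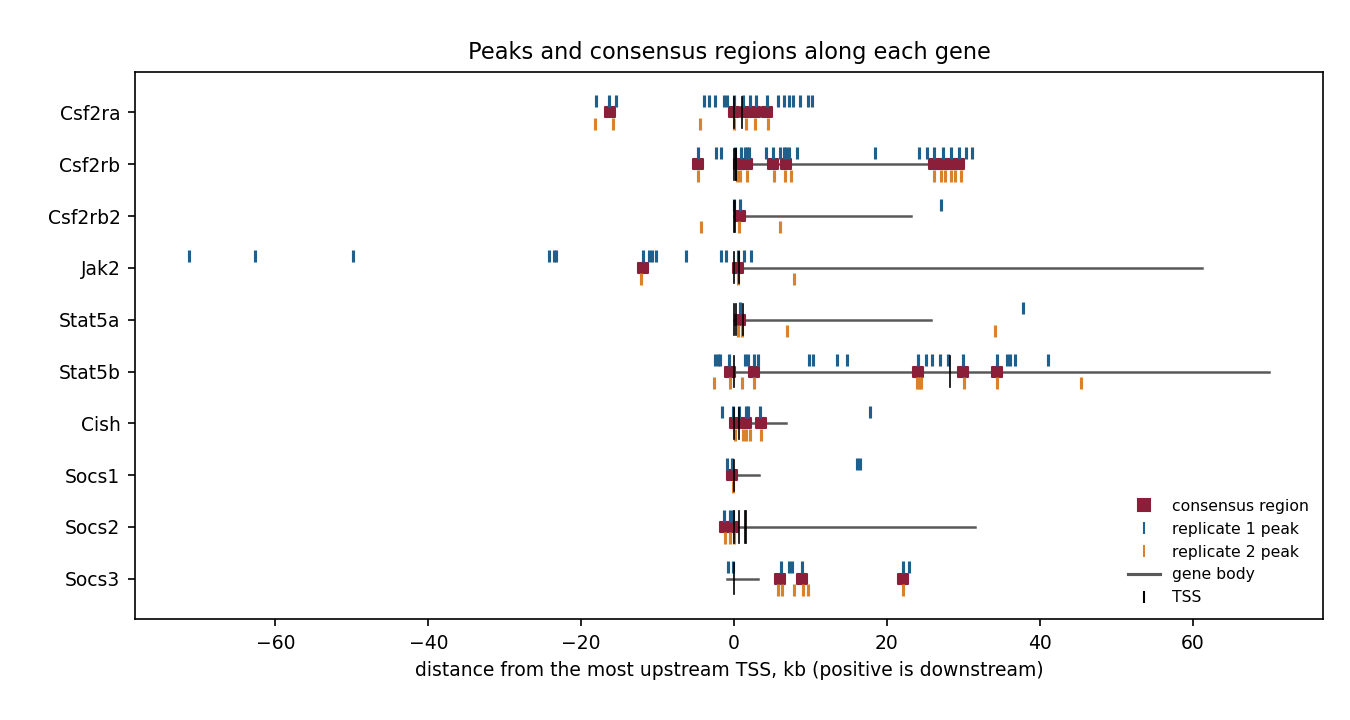
Position of consensus regions (squares), replicate 1 peaks (upper ticks) and replicate 2 peaks (lower ticks) along each gene, in kb from the most upstream TSS, with the gene body as a line and TSSs as black ticks. The 3 Socs3 regions lay downstream of the gene, and Jak2 had 16 peaks in replicate 1 against 3 in replicate 2.

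By role, the 3 receptor genes had 15 regions, Jak2 had 2, the 2 STAT genes had 6 and the 4 feedback inhibitors had 10. Per kb of gene body, the count of regions in the body was 0.197 for the receptors, 0.0163 for Jak2, 0.0522 for the STATs and 0.0873 for the inhibitors, against 0.0178 over all protein-coding genes. The value for Jak2 was thus close to that of all genes. By gene, the rate was 0.894 for Csf2ra, 0.214 for Csf2rb and 0.0431 for Csf2rb2. Among the inhibitors it was 0.444 for Cish, 0.0314 for Socs2 and 0 for Socs1 and Socs3. The rates of these roles thus varied widely between genes, and promoter regions that overlap the body were counted. Within 1 kb of a TSS lay 6 of the 10 inhibitor regions, 4 of the 15 receptor regions and 2 of the 6 STAT regions. The median fold was 6.79 and 4.69 for the receptor regions in replicates 1 and 2, 3.85 and 5.36 for the STAT regions, and 5.45 and 5.02 for the inhibitor regions. The order of receptors and STATs was opposite in the 2 libraries, so no order of strength by role held in both.

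The share of member regions with the RBPJ core depended on the window. The core TGGGAA, counted in either orientation up to 100 bp from the summit, was present in 6 of 33 member regions (18.2%), against 18.8% of all consensus regions. With 250 bp either side it was present in 17 (51.5%), against 40.2%. The 6 regions with a core in the narrower window were at Csf2ra, Csf2rb, Stat5b, Socs1, Socs2 and Socs3. GAGGAAG was present in 7 member regions (21.2%), against 15.9%, and the GC box GGGCGG in 8 (24.2%), against 14.3%. TTGCNNAA, the motif of C/EBP factors, was present in 5 (15.2%), against 14.3%, the AP-1 motif TGANTCA in 3 (9.09%), against 9.30%, and the nuclear receptor element AGGTCA in 3 (9.09%), against 13.3%. The last comparison turned with 250 bp either side, where AGGTCA was present in 15 member regions (45.5%), against 28.6%. The E box CACGTG was in none of the 33, against 4.88%. With 250 bp either side, CACGTG was in 3 member regions (9.09%), against 9.77%. TGGGAA is part of GTGGGAA and can be part of a GAS match. With 33 windows, 1 region more or less moves a share by 3.03 percentage points.

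In the RefSeq promoter table of 300 bp windows, 8 of the 10 genes were present, and Csf2rb and Socs2 were not matched. TGGGAA was present in the windows of Csf2ra and Socs1, against 28.3% of 27025 genes in the table. GAS matches were present in those of Cish, Csf2rb2 and Socs3, against 9.55% of genes.

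Other genes of GM-CSF and related cytokine signaling were examined for comparison. Of 47 such genes in 7 lists, 33 had a consensus region within 1 kb of a TSS (70.2%), against 33.7% of all protein-coding genes. The strongest region of a gene or list is given by its lower fold, and its summit need not lie within 1 kb of a TSS. Among the adaptor and kinase genes 7 of 8 had a promoter region, and the strongest regions were at the Src-family kinase gene Lyn (folds of 15.2 in replicate 1 and 12.4 in replicate 2) and the adaptor gene Gab2 (9.52 and 9.91). Among genes that respond to the pathway 8 of 9 had a promoter region. The strongest regions of that list were at the survival gene Mcl1 (13.3 and 13.7) and the transcriptional repressor gene Bcl6 (21.3 and 12.4), and Pim2 had none.

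Of the other negative regulators, 9 of 11 had a promoter region. The strongest regions were at the phosphatase gene Ptpn1 (16.0 and 10.4) and the E3 ligase gene Cbl (7.87 and 12.7), whereas Pias2 and Pias3 had no region. Among other STATs 4 of 5 had a promoter region, with the highest lower fold at Stat2 (8.63 and 8.37), and Stat4 had none. In replicate 1, the strongest regions of Stat3 (12.9) and Stat6 (13.2) were higher than that of Stat2, and these genes were chosen after their values were seen. Jak1 (7.61 and 5.69) and Tyk2 (9.13 and 5.02) had promoter regions and Jak3 had none. By the lower fold, the strongest region of Stat2 exceeded every region of Stat5a and Stat5b.

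By contrast, 2 of the 7 genes for ligands and other receptor chains and 1 of the 4 other SOCS genes had a promoter region. Csf1r, the M-CSF receptor gene, had 10.1 and 7.71 at its strongest region, with the summit 2756 bp downstream of a TSS. Csf3r, the G-CSF receptor gene, had 7.36 and 5.69 at a region outside the promoter. Csf2, which encodes GM-CSF itself, and Il3 had no consensus region. Socs5 had 6.60 and 4.69 at its promoter, Socs6 had 3.59 and 4.69 far from it, and Socs4 and Socs7 had none.

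**Figure D4:**
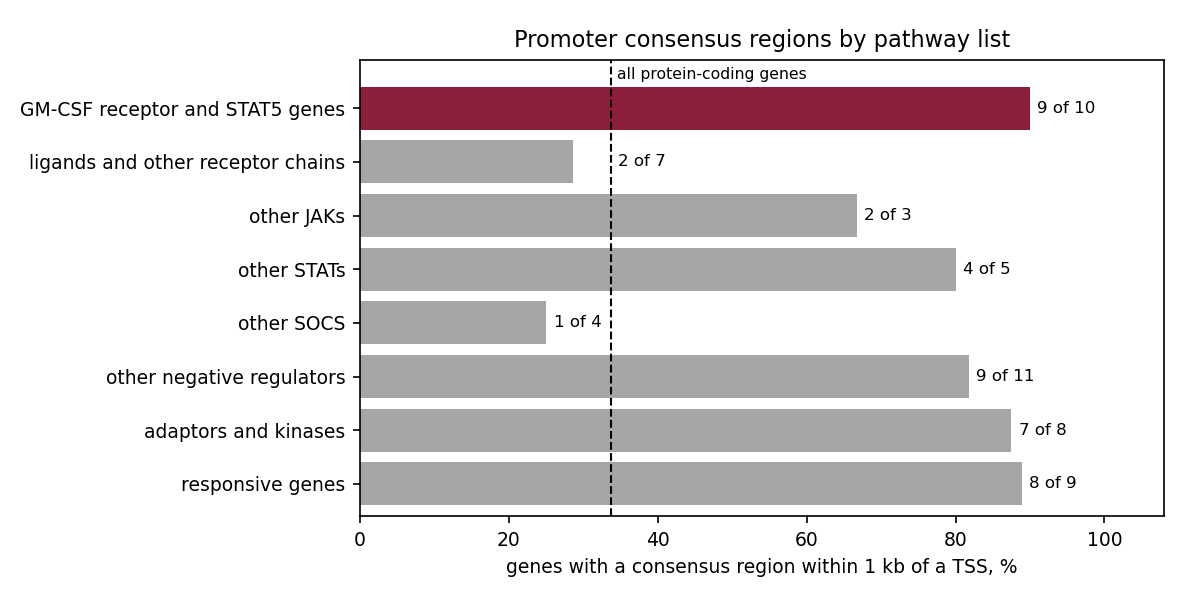
Percentage of genes in each list with a consensus region within 1 kb of a TSS (x axis), with the counts beside the bars and the share of all protein-coding genes (33.7%) as a dashed line. The GM-CSF receptor and STAT5 genes had 9 of 10, the ligands and other receptor chains 2 of 7 and the other SOCS genes 1 of 4.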

How the data were processed

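Per the labels and the study's methods, the authors trimmed reads with cutadapt, aligned them to mm10 with Bowtie2, removed duplicates, kept properly paired reads with SAMtools and called peaks for each RBPJ library against input with MACS3 (q 0.05). The deposited peak lists give the fold enrichment over input at the summit (a ratio), −log10 p-values and −log10 q-values, a display score and the summit position. Only the fold, the −log10 q-value and positions were used. Read depth was not given in the lists, so no counting interval was computed.

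Peaks of the 2 lists were merged where they shared at least 1 bp (Python 3.11.15, pandas 2.3.3), and intervals with a peak of each list were kept as consensus regions, with the highest fold and q-value of each list. The lower fold is the smaller of the 2. Regions were assigned to genes of GENCODE M21 (basic) by overlap with the gene body or with 1 kb either side of a TSS, or by the protein-coding TSS nearest to the summit, taken from whichever library had the higher fold. Motifs were searched on both strands in 201 bp around that summit. Scripts were tested on simulated data.

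All 10 genes are described. In each other pathway list, the 2 genes with the highest lower fold and up to 2 genes without a region are named, except for 1 gene that is not reported here. The genes and lists were chosen with earlier results of these data known. Alternatives were a −log10 q of 5, summits within 100 bp, replicate 1 shortened to the length of replicate 2, each list alone, other promoter windows, transcripts, nearest-gene rules and motif windows. For the summit alternative, peaks with a summit of the other list within 100 bp were kept and merged again.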

Additional observations from a re-analysis of the deposited data

How the results depend on the processing

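The counts of genes with a region within 1 kb of a TSS, nearest to a region, or with any region stayed within 1.5 times of the main values under every alternative. Socs3 lacked a promoter region under each of them except replicate 1 alone, which gave 10 genes. With a −log10 q of at least 5 in both lists, 6 genes kept a promoter region, against 24.0% of all genes, and Csf2rb2, Jak2 and Stat5b also lost theirs. Regions were then 17 in all, 8 at receptors, 1 at the kinase, 2 at STATs and 6 at inhibitors. With summits within 100 bp, 5 genes had a region in the body, and regions were 17 in all, 9 at receptors, 1 at the kinase, 2 at STATs and 5 at inhibitors; 6 genes had a promoter region, against 22.6% of all genes, and Csf2rb2, Stat5a and Stat5b had none. With replicate 1 shortened, 7 genes had a promoter region, against 30.6% of all genes, regions were 21 in all and 2 at STATs, and the counts at the other roles stayed within 1.5 times. With a single list in place of both, peaks ranged from 55 to 110 in all, 23 to 47 at receptors, 3 to 16 at the kinase, 14 to 25 at STATs and 15 to 22 at inhibitors, the lower value in each case from replicate 2. Within 250 bp of the summit, 9 regions had a GAS motif (27.3%, against 15.9% of all regions) and 17 the RBPJ core (51.5%, against 40.2%). No paired analysis was possible because all results are counts and values from 1 group with no test. The lists give no depth, and with 2 libraries a peak missing from replicate 2 cannot be told apart from a peak below its calling threshold.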

Other observations

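Binding called in a single library extended the pattern at several of the 10 genes. Of the 110 replicate 1 peaks assigned to them, 36 overlapped a replicate 2 peak (32.7%), against 26.0% of all replicate 1 peaks, and of the 55 replicate 2 peaks 39 overlapped a replicate 1 peak (70.9%), against 66.3%. At Csf2ra, the highest unshared replicate 1 peaks had folds of 7.36 and 6.60 downstream of the gene, 4369 and 5647 bp from the nearest TSS, and 6.60 upstream at 2421 bp. The gaps to the nearest replicate 2 peaks were 675, 1586 and 1638 bp. At Stat5b, an unshared replicate 1 peak in the first intron, 10450 bp downstream of the TSS, had 6.85, the same value as the unshared peak at the Socs3 promoter. These 5 peaks were chosen after their values were seen, and whether they reflect depth was not tested.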
